A study of Homo sapiens with 6 samples.

Results

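Ribosome footprints on 10 genes of glucose uptake and glycolysis were followed in WPMY-1, a myofibroblast cell line from the stroma of the human prostate. The genes were SLC2A3, SLC2A1, HK2, PFKP, ALDOA, GAPDH, PGK1, ENO1, PKM and LDHA. They were taken by Ensembl gene ID, cut at the first dot, and each of the 10 IDs matched 1 row of the 62492 features in the deposited table. The symbols came with the list of IDs, since the table itself gives no names. The set was selected on pathway membership and on footprint fold changes of the same comparison, in which SLC2A3 was already known as one of the largest rises. The difference between groups is therefore given as a description of each gene, and nothing is tested on the set.

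The sh61A group held 3 libraries of WPMY-1 carrying a short hairpin RNA against TRMT61A, labelled as knockdown. TRMT61A is the catalytic subunit of the enzyme that places 1-methyladenosine in tRNA. The shcontrol group held 3 libraries of the same line, labelled as TRMT61A wildtype and named for a vector in the table. Neither the number of hairpin sequences, the time after their introduction, the glucose in the medium nor the oxygen level is given in the sources used here, and nothing says that replicates are separate cultures, so the stated errors may be technical. Both groups rest on 1 line grown outside its tissue.

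Cells take up glucose through the SLC2A family of facilitative transporters and break it down in the cytosol to pyruvate, with a net gain of ATP and NADH. Lactate dehydrogenase then turns pyruvate into lactate and restores the NAD+ that the pathway needs. Several of these genes are well-known targets of hypoxia-inducible factors and of MYC, and SLC2A1 is the widely used transporter of cultured cells, while SLC2A3 is best known from neurons.

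In the sh61A cells, footprints on SLC2A3 rose and footprints on LDHA fell. SLC2A3 was 8.97-fold higher in sh61A libraries (95% interval 5.56 to 14.5), and the LDHA level in sh61A libraries was 0.377 times that of shcontrol libraries (0.271 to 0.525). The other 8 genes did not pass the threshold. Thus 2 of the 10 genes were past an adjusted p of 0.05 in edgeR's quasi-likelihood test, 1 higher and 1 lower, against 3.12% of all 11653 tested features, 1.48% higher and 1.64% lower. Because the set was chosen with this comparison known, nothing is read from that difference. All 10 genes passed the filter on low counts. Their median log2 fold change was -0.37, against -0.0047 over all tested features, with 2 genes above 0 and 8 below it.

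**Figure D1:**
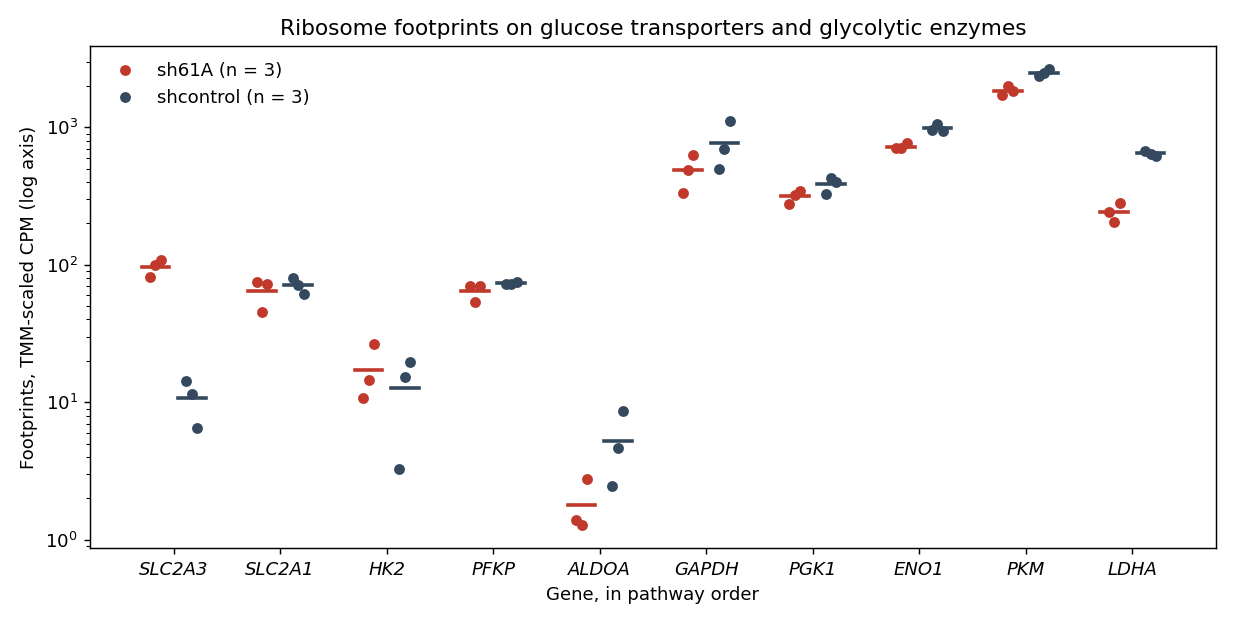
Footprints on each gene (TMM-scaled CPM, log axis) in the 3 sh61A libraries (red, left of each pair) and the 3 shcontrol libraries (dark, right); bars are group means. The groups lie far apart for SLC2A3 (80.9 to 108 against 6.46 to 14.2) and LDHA (205 to 282 against 623 to 674). Heights of different genes are not comparable, since gene length is not taken into account.

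Depth set the scale of these values. Total counts ran from 12704354 to 17752247 in sh61A libraries and from 6771455 to 8008896 in shcontrol libraries, a ratio of mean totals of 1.98. Counts were scaled by TMM, a factor per library that centres most features, and are given as CPM, counts rescaled to a common library total. A single count was worth 0.0658 to 0.0848 CPM in sh61A libraries and 0.113 to 0.136 CPM in shcontrol libraries. The 50 most abundant features took 69.9% to 73.2% of sh61A counts and 61.8% to 71.0% of shcontrol counts. The typical spread between libraries was wide, with a common coefficient of biological variation of 54.4%. Without scaling factors the median of all features moved to -0.30, and 63 features were called higher and 334 lower, in place of 173 and 191 with TMM. The transcripts' coding lengths were not used here, so levels are compared between groups and not between genes.

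SLC2A3 (ENSG00000059804.16_6) encodes GLUT3, a glucose transporter of high affinity. It had 80.9, 99.7 and 108 CPM in the sh61A libraries, against 14.2, 11.5 and 6.46 CPM in the shcontrol libraries. Every sh61A library lay above every shcontrol library, and the lowest of them was 5.68 times the highest shcontrol value. The raw counts behind these levels were 1231, 1177 and 1331 in sh61A and 105, 94 and 57 in shcontrol. Mean levels were 96.2 ± 13.8 CPM in sh61A libraries and 10.7 ± 3.9 CPM in shcontrol libraries (SD, n = 3 each). The log2 fold change was 3.17 ± 0.32 (SE), the 37th highest of the 11653 tested features, so 0.318% of features had a higher one. SLC2A3 has a near-identical paralogue, SLC2A14, and short footprints can match both. How the authors' counting treated such reads is not given in the sources used here, and how much of the SLC2A3 count is shared was not tested.

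SLC2A1 (ENSG00000117394.23_8) encodes GLUT1, the transporter of basal glucose uptake in many cell types. It had 74.8, 45.3 and 72.1 CPM in the sh61A libraries, against 80.7, 71.5 and 60.8 CPM in the shcontrol libraries. The groups overlapped, and sh61A library 2 was the lowest of the 6. Its log2 fold change was -0.15 ± 0.26 (SE), with a 95% interval of -0.70 to 0.41. That interval leaves room for a level in sh61A from 0.614 to 1.33 times that of shcontrol. The estimate turned to 0.049 when sh61A library 2 was left out.

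The balance of the 2 transporters can be read within each library without any scaling. There were 1.08, 2.20 and 1.496 SLC2A3 counts per SLC2A1 count in the sh61A libraries, against 0.176, 0.161 and 0.106 in the shcontrol libraries. The ratio averaged 1.59 ± 0.57 in sh61A and 0.148 ± 0.037 in shcontrol (SD, n = 3 each), which differ by a factor of 10.8. The groups did not overlap, but the ratio carries the rise of SLC2A3, which was known when the set was chosen. How often such ratios separate the groups over other features was not computed. The counts are not corrected for coding length, so a ratio near 1 does not mean equal footprint density on the 2 genes, while the factor between groups is free of length.

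**Figure D2:**
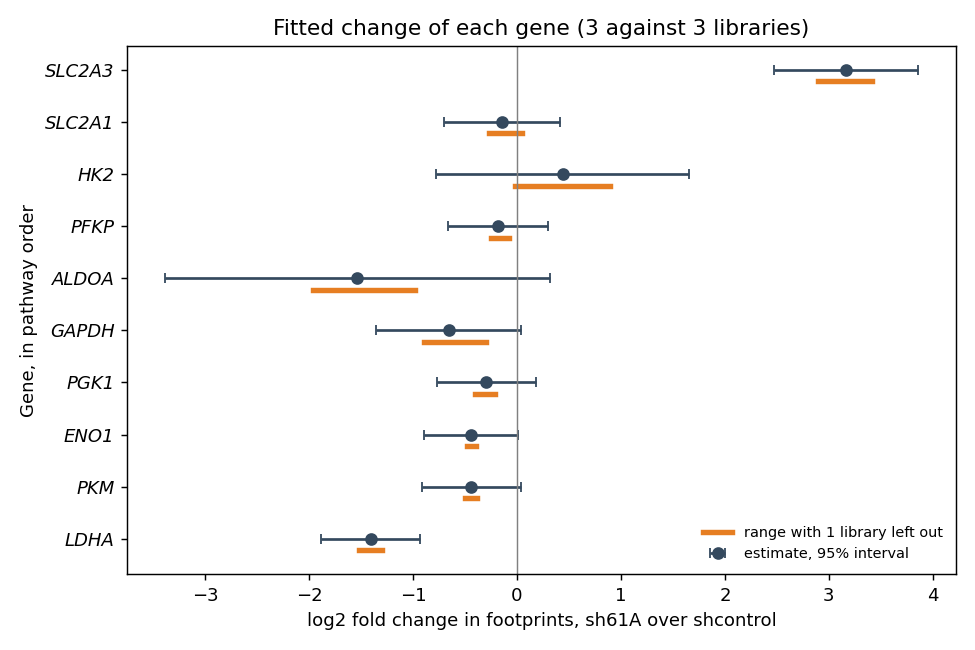
Fitted log2 fold change in footprints, sh61A over shcontrol, for each gene in pathway order from the transporters at the top to LDHA at the bottom (points, with 95% intervals from the fit of 3 against 3 libraries), and the range of estimates when each library was left out in turn (orange bars). The intervals of SLC2A3 (2.47 to 3.86) and LDHA (-1.88 to -0.93) exclude 0, and the other 8 include it. The set was chosen with this comparison known, so the intervals describe the fit and are not read as a test of these genes.

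The enzymes that spend ATP to prime the sugar did not pass the threshold. HK2 (ENSG00000159399.10_5), the inducible hexokinase that phosphorylates glucose on entry and can bind mitochondria, had 163, 172 and 326 counts in the sh61A libraries, against 24, 124 and 172 in the shcontrol libraries. On the CPM scale this was 10.7, 14.6 and 26.4 in sh61A and 3.26, 15.2 and 19.5 in shcontrol. The groups overlapped, and shcontrol library 1 stood far below the rest. The log2 fold change of HK2 was 0.44 ± 0.56 (SE), with a 95% interval of -0.77 to 1.66, so the fit allows a level in sh61A from 0.585 to 3.15 times that of shcontrol. It ran from -0.017 to 0.89 with 1 library left out at a time, and the lowest of these was the fit without shcontrol library 1.

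PFKP (ENSG00000067057.17_5), the platelet isoform of phosphofructokinase, catalyses the committed step of the pathway. It had 70.0, 54.0 and 69.8 CPM in the sh61A libraries, against 73.0, 72.0 and 75.5 CPM in the shcontrol libraries. The sh61A values lay just below the shcontrol values with no overlap, by a log2 fold change of -0.19 ± 0.22 (SE) and a 95% interval of -0.67 to 0.30. The shcontrol libraries were closely matched, with a coefficient of variation of 2.50%.

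ALDOA (ENSG00000149925.21_8), the aldolase that splits the 6-carbon sugar, was counted thinly. Its counts were 21, 15 and 34 in the sh61A libraries, against 18, 38 and 76 in the shcontrol libraries. The levels averaged 1.80 ± 0.83 CPM in sh61A and 5.24 ± 3.13 CPM in shcontrol (SD, n = 3 each), and the groups overlapped. Fitted over all libraries, the log2 fold change was -1.54 ± 0.85 (SE), larger in size than that of LDHA, but its 95% interval of -3.39 to 0.31 includes 0. Whether footprints of ALDOA were assigned to other features, such as overlapping genes or processed pseudogenes, was not tested.

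The enzymes of the second phase, which recover ATP and NADH, all had fitted values below 0 on the scale of the whole library, while PGK1, ENO1 and PKM turned above 0 relative to the other 9 genes, and none passed the threshold. GAPDH (ENSG00000111640.15_5) oxidises glyceraldehyde 3-phosphate and yields NADH. It had 334, 489.6 and 634 CPM in the sh61A libraries, against 498, 691 and 1109 CPM in the shcontrol libraries. The groups overlapped, and GAPDH varied far more within a group than PKM or ENO1 did. Its coefficient of variation was 30.9% in sh61A and 40.8% in shcontrol, against 8.07% and 6.45% for PKM. The log2 fold change was -0.66 ± 0.32 (SE), with a 95% interval of -1.36 to 0.04, and it ran from -0.90 to -0.30 with 1 library left out at a time. GAPDH is often used as a loading reference, and in these footprint libraries its highest shcontrol value was 3.32 times its lowest sh61A value.

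PGK1 (ENSG00000102144.15_6) makes the first ATP of this phase. It had 275, 323 and 343 CPM in the sh61A libraries, against 328, 426 and 399.9 CPM in the shcontrol libraries. The groups overlapped, since sh61A library 3 exceeded shcontrol library 1. The fitted log2 fold change was -0.29 ± 0.22 (SE), with a 95% interval of -0.77 to 0.18.

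ENO1 (ENSG00000074800.16_9), the enolase that forms phosphoenolpyruvate, and PKM (ENSG00000067225.18_7), the pyruvate kinase that makes the last ATP, had fitted values close to each other. ENO1 had 701, 701 and 769 CPM in the sh61A libraries, against 957, 1048 and 942 CPM in the shcontrol libraries. PKM had 1707, 2002 and 1822 CPM in the sh61A libraries, against 2341, 2491 and 2664 CPM in the shcontrol libraries. For both genes every sh61A library lay below every shcontrol library. The log2 fold change was -0.44 ± 0.21 (SE) for ENO1 and -0.44 ± 0.22 (SE) for PKM, with 95% intervals of -0.89 to 0.01 and -0.92 to 0.04. Counts per PKM isoform were not used here, so the balance of its M1 and M2 splice forms is not described. There were 2.55 ± 0.26 PKM counts per ENO1 count in sh61A and 2.55 ± 0.24 in shcontrol (SD, n = 3 each).

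LDHA (ENSG00000134333.14_8) encodes the A subunit of lactate dehydrogenase, the form that favours making lactate from pyruvate. It had 243, 205 and 282 CPM in the sh61A libraries, against 674, 638 and 623 CPM in the shcontrol libraries. All sh61A values were below all shcontrol values, and the highest sh61A value was 0.453 times the lowest shcontrol value. Raw counts were 3689, 2420 and 3481 in sh61A and 4972, 5200 and 5495 in shcontrol, so even without scaling, and at about 1.98 times the depth, the sh61A libraries held fewer LDHA footprints. Mean levels were 243 ± 38 CPM in sh61A libraries and 645 ± 26 CPM in shcontrol libraries (SD, n = 3 each). This was a log2 fold change of -1.41 ± 0.22 (SE), and 6.26% of tested features had a lower one. The call was lost without sh61A library 2, at -1.30 and an adjusted p of 0.0601, and without shcontrol library 2, at -1.42 and an adjusted p of 0.0522, both in edgeR's quasi-likelihood test.

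LDHA counts were also set against those of each of the other 9 genes within a library, a ratio free of scaling. In 7 of the 9 ratios every sh61A library lay below every shcontrol library, and those to GAPDH and ALDOA overlapped. All 9 share the LDHA count and are not independent, and the ratio to SLC2A3 also carries the rise of SLC2A3. The share of such ratios over other features was not computed. There were 0.142, 0.102 and 0.155 LDHA counts per PKM count in the sh61A libraries, against 0.288, 0.256 and 0.234 in the shcontrol libraries. Against ENO1 the ratios were 0.346, 0.292 and 0.367 in sh61A and 0.704, 0.608 and 0.661 in shcontrol. Against PGK1 they were 0.880, 0.635 and 0.821 in sh61A and 2.054, 1.496 and 1.56 in shcontrol. None of these 3 ratios overlapped between groups, and their sh61A means were 0.513, 0.509 and 0.457 times the shcontrol means. Against GAPDH there were 0.727, 0.419 and 0.445 LDHA counts in sh61A and 1.35, 0.922 and 0.562 in shcontrol, so sh61A library 1 exceeded shcontrol library 3. Against the thinly counted ALDOA the ratios were 176, 161 and 102 in sh61A and 276, 137 and 72.3 in shcontrol. The ratios were chosen after values had been seen, and no test was made on them.

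**Figure D3:**
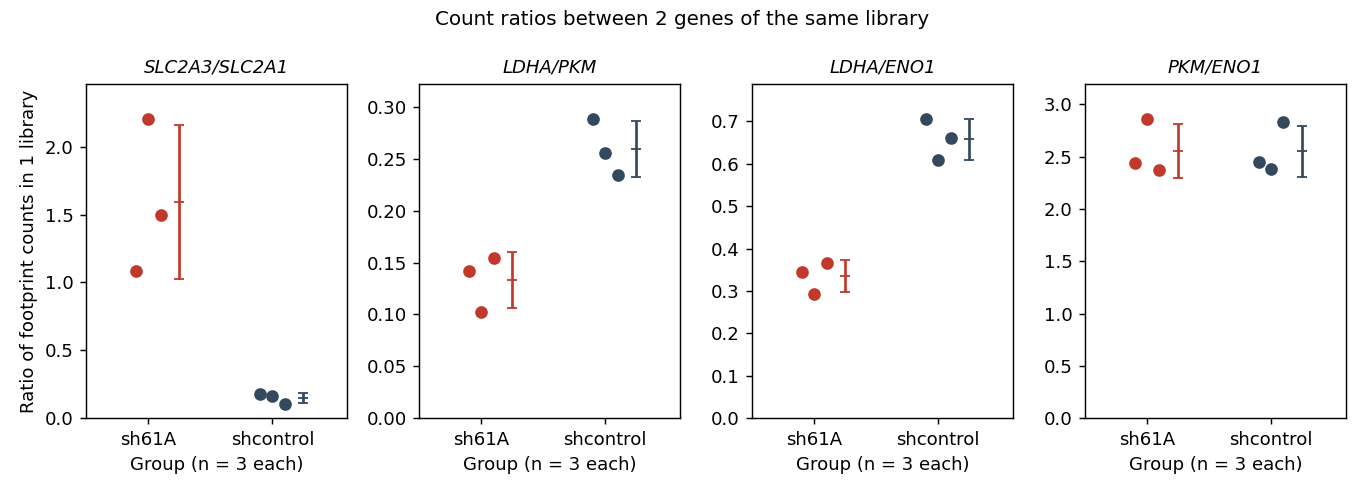
Ratio of footprint counts between 2 genes of the same library, for the 3 sh61A libraries (red, left) and the 3 shcontrol libraries (dark, right), with the mean and SD at the side of each group. SLC2A3 over SLC2A1 was 1.59 ± 0.57 in sh61A against 0.148 ± 0.037 in shcontrol, LDHA over PKM and over ENO1 was lower in every sh61A library, and PKM over ENO1 overlapped.

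The promoters of LDHA, SLC2A1 and PGK1 are shown as examples of genes known to be hypoxia-inducible. LDHA was the only enzyme past the threshold. The transporter SLC2A1 and the enzyme PGK1 did not pass it, which does not show that they were unchanged. Whether hypoxia-inducible factors bear on any of these footprint values was not tested. Windows run from 250 bases before to 50 bases after a gene's start and are RefSeq sequences of GRCh38.p14, each written 5′ to 3′ on the gene's strand. Capitals mark ACGTG and GCGTG on either strand, the core of the hypoxia response element. LDHA (first of 2 windows) is chr11:18394313-18394612, plus strand. SLC2A1 is chr1:42958819-42959118, minus strand. PGK1 is chrX:78103998-78104297, plus strand.
LDHA: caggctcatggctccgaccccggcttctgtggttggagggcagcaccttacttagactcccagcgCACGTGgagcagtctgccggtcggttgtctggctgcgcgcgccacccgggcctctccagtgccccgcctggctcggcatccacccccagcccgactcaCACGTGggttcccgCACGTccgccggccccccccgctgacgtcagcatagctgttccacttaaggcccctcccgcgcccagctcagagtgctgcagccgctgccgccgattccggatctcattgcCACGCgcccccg
SLC2A1: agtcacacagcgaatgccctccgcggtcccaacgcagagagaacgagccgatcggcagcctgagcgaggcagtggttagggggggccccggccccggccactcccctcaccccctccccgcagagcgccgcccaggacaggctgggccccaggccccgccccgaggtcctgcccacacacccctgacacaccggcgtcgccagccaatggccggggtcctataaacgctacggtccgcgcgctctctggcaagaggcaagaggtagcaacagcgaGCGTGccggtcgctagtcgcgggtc
PGK1: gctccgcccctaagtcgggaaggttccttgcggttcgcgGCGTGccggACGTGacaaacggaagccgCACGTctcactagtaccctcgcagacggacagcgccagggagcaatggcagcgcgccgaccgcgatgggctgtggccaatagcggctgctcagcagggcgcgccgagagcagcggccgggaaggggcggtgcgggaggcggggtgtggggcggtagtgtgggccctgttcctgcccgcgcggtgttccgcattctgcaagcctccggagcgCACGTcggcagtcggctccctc

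The LDHA window shown held 5 matches to ACGTG, 1 to GCGTG and 2 to the E-box CACGTG, a palindrome that contains ACGTG on both strands and so gives 4 of those 5. The other LDHA window, chr11:18396101-18396400 on the plus strand, held 0 matches to ACGTG, 1 to GCGTG and 0 to CACGTG. The SLC2A1 window held 0 matches to ACGTG and 1 to GCGTG, and the PGK1 window held 3 and 1. Of the 10 genes, 9 had at least 1 window in the table, 16 windows in all, and SLC2A3 had none. ACGTG or GCGTG was present in 14 of these 16 windows, against 48.4% of all 35116 windows, and CACGTG was present in 4 of 16, against 7.26%. Several windows belong to the same gene, with 4 for PFKP, 3 for ALDOA and 2 each for HK2 and LDHA, so they are not independent. ACGTG was in 21.4% of all windows and GCGTG in 36.5%, some of which held both. These are matches of letters and were not tested against the footprint values. The windows of all genes were not matched to these 16 for base composition. Several of the 10 genes are well-known targets of hypoxia-inducible factors and of MYC, so nothing is read from the higher shares.

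Groups did not overlap for 5 of 10 genes, SLC2A3 with sh61A above and PFKP, ENO1, PKM and LDHA with sh61A below, where 24.8% of all tested features did not overlap (12.2% above and 12.7% below). The footprints of all 10 genes together came to 3854 ± 324 CPM in sh61A libraries and 5450.1 ± 468.5 CPM in shcontrol libraries (SD, n = 3 each). Their share of all counts was 0.350% ± 0.051 in sh61A and 0.609% ± 0.134 in shcontrol. That share is not scaled, and without scaling factors the median log2 fold change of all tested features was -0.30, so it also carries this general shift. The sum ran from 3497 to 4129 CPM in sh61A libraries and from 4972 to 5909 CPM in shcontrol libraries, with no overlap.

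**Figure D4:**
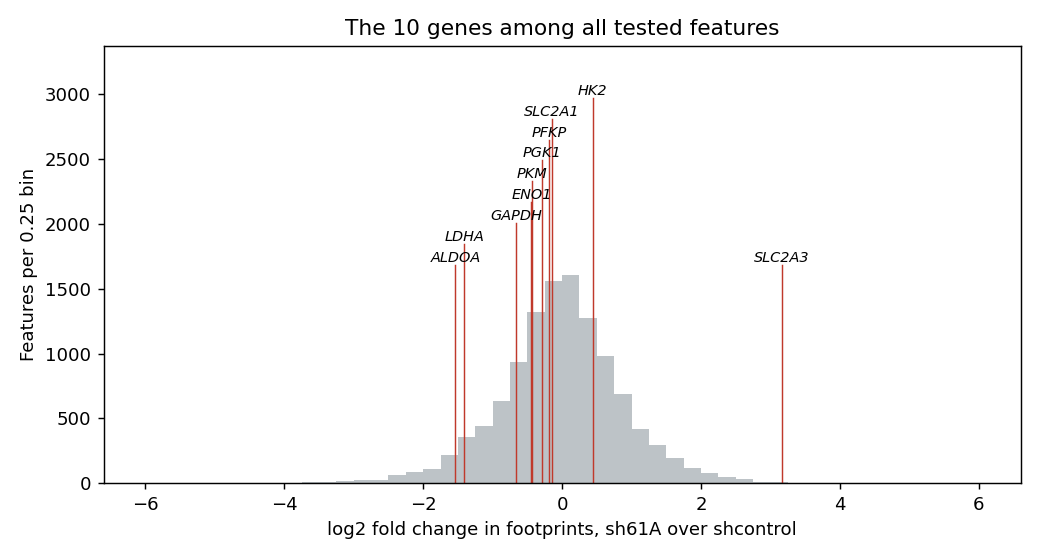
Distribution of the fitted log2 fold change, sh61A over shcontrol, over the 11653 tested features (grey bars, number of features per bin of 0.25), with the 10 genes marked in red at their own values; 36 features beyond a log2 fold change of 6 in size are not drawn. SLC2A3 at 3.17 lies in the far right tail, LDHA at -1.41 and ALDOA at -1.54 on the left side, and the other 7 genes between -0.66 and 0.44.

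Within the set, SLC2A3 made up 2.49% ± 0.15 of the 10 genes' counts in sh61A and 0.202% ± 0.089 in shcontrol (SD, n = 3 each). LDHA made up 6.33% ± 0.97 in sh61A and 11.9% ± 1.5 in shcontrol. PKM, the member with the most counts, took 47.9% ± 3.4 in sh61A and 45.9% ± 1.1 in shcontrol, and ENO1 took 18.8% ± 1.1 and 18.1% ± 1.9, again in sh61A and in shcontrol. PGK1 took 8.14% ± 0.23 in sh61A and 7.05% ± 0.65 in shcontrol, with no overlap and sh61A above. Measured against the other 9 genes in place of the whole library, the log2 difference was 3.76 for SLC2A3 and -1.01 for LDHA. On that scale PKM stood at 0.12, ENO1 at 0.071, PGK1 at 0.23, PFKP at 0.31 and SLC2A1 at 0.33, all above 0, where the whole-library scale put them below 0. The sum that each is set against holds LDHA, so a fall of LDHA by itself raises these values. As shares of the set, PKM, ENO1, PFKP and SLC2A1 overlapped between groups.

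The spread between libraries of a group was shared by some of the genes. HK2 and GAPDH were lowest in library 1 and highest in library 3 of both groups, and ALDOA was highest in library 3 of both. HK2 deviated from its group mean by -0.58, -0.14 and 0.72 on the log2 scale in the sh61A libraries, against -1.60, 0.62 and 0.98 in the shcontrol libraries. GAPDH deviated by -0.49, 0.06 and 0.43 in sh61A, against -0.54, -0.07 and 0.61 in shcontrol. SLC2A3 ran the other way in the shcontrol libraries, where library 1 was highest and library 3 lowest, at 0.48, 0.18 and -0.66, against -0.24, 0.06 and 0.18 in sh61A. The within-group deviations of ENO1 stayed within 0.095 in size in all 6 libraries. The share of all features with such an order was not computed. In both groups library 1 also had the lowest TMM factor, 0.8583 in sh61A and 0.9235 in shcontrol. It also had the highest share of counts in the 50 most abundant features, 73.2% in sh61A and 71.0% in shcontrol. Whether this bears on the order of these genes was not tested. Equal library numbers were not shown to mark a shared culture or batch.

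A footprint count reflects both the amount of an mRNA and the ribosomes on it. In bulk lysates, a smaller share of cells with footprints on a gene cannot be told apart from fewer footprints per cell. The mRNA levels of these genes were not used here, so the SLC2A3 and LDHA differences are not divided into mRNA and translation.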

How the data were processed

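Ribosome footprints were sequenced in 6 WPMY-1 libraries, 3 sh61A and 3 shcontrol. Per the labels' protocols, RNase I trimmed the lysate, single ribosomes were isolated on a sucrose gradient, and short fragments were depleted of rRNA, selected by gel and amplified. The deposited values are raw read counts per Ensembl gene ID. The submitters' processing notes name fastp, Bowtie 1.3.1 and hg38. What counted the reads, on which annotation and whether by strand is not given in the sources used here. No molecular identifiers are described, so counts may include PCR duplicates. The intervals and standard errors given come from the edgeR fit and include the spread between libraries. That fit shares information on spread across all tested features, so they do not measure a gene's own spread alone. ENO1, for example, had a coefficient of variation of 5.37% in sh61A and 5.82% in shcontrol. Columns of the control carry a vector's name and were matched by assay and library number. The table's 6 further columns, named for RNA, match none of the samples described here and were not used.

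The 10 genes, the motifs and the alternatives were chosen with earlier results of these data known. Genes were named from the supplied list, all of them described. The RefSeq gene table (GRCh38.p14, 59792 genes) has 0 Ensembl IDs, so TRMT61A, cell type markers and other genes of the pathway were not analysed here. Levels per codon were not computed for want of coding lengths. No correlation with SLC2A3 is given, because its libraries form separate clusters.

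Counts were fitted with edgeR 4.0.16 in R 4.3.3. filterByExpr kept 11653 features with 99.8% of counts, libraries were scaled by TMM, and sh61A was compared with shcontrol by the quasi-likelihood F-test (two-sided), adjusted by Benjamini-Hochberg over all tested features at 0.05. The standard error is the size of the log2 fold change over the root of F, and the code was tested on simulated counts. Alternatives were DESeq2 1.42.0, limma 3.58.1 with voom, other scaling factors and filters, the library number as a block, and leaving out each library.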

Additional observations from a re-analysis of the deposited data

How the results depend on the processing

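SLC2A3 passed the threshold in all 15 alternatives run with a test, at log2 fold changes from 2.90 to 3.42. These alternatives refit the libraries in which the rise of SLC2A3 was already known, so its passing is no independent support. LDHA passed in 13 of 15, from -1.69 to -1.30, and as the same libraries were refitted, this is no independent support either. The other 8 genes passed in none of theirs, and the direction of SLC2A1 and HK2, neither of which passed, turned in some. Relative to the other 9 genes, a scale added after seeing the data, SLC2A3 came to 3.76. With each library left out in turn, the number of the 10 genes past the threshold ran from 1 to 2, SLC2A3 always among them, and SLC2A3 ran from 2.90 to 3.42. The count of called features, 364, moved more. It was 784 in DESeq2, 735 without a filter on low counts, 602 with at least 10 CPM in 3 libraries and 47 to 171 with each library left out in turn. With the library number as a replicate block it was 208, SLC2A3 stood at 3.21 and LDHA at -1.42, and both stayed past the threshold, as did no other of the 10. Deviations of same-numbered libraries correlated at -0.0039, -0.017 and 0.050 across features. Those of libraries with unlike numbers ran from -0.083 to 0.086. Correlations this small cannot decide on a shared culture or batch, which was not tested. Without TMM factors the 10 genes shifted with the median of all features, -0.30. Relative to that median SLC2A3 stood at 3.22 and LDHA at -1.39. ALDOA was too low for the filter of 10 CPM. Fits without 1 library have fewer samples, and the causes of the other differences were not tested. ALDOA had 15 to 76 counts per library and a coefficient of variation of 45.9% in sh61A and 59.7% in shcontrol, and HK2, with 24 to 326 counts, had 47.5% and 66.5% in the same order of groups. Whether depth limits either gene was not tested. The planned settings for levels per codon were not run.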
